A study of Mus musculus with 48 samples.

Results

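The genes described here are 36 interferon-stimulated genes, taken by symbol from the 29221 genes measured in mouse liver, and all 36 were found under their listed names. Each of the 36 passed the filter on low counts in every comparison. Whole-liver RNA was sequenced from 48 libraries of adult mice whose Pparg gene carried floxed alleles in all groups. Controls had received the virus AAV8-TBG-null, and the mice labelled as hepatocyte-specific knockouts of PPARgamma had received AAV8-TBG-Cre, each after 16 weeks on diet. TBG is a promoter active in hepatocytes, so the other cell types of the liver were not the target of the Cre recombinase. Males were sampled as 6 libraries a group after 34 weeks of high-fat (HF) diet, labelled steatosis, or after 18 weeks of HF diet and then 16 weeks on HFCF, which adds cholesterol and fructose to high fat and is labelled non-alcoholic steatohepatitis. Females were sampled as 4 libraries a group on the same diets and also after 34 weeks of low-fat (LF) diet, labelled healthy. Each diet and sex had a control and a labelled knockout group, which gives 10 groups. The labels describe each library as liver of a mouse and say nothing about pooling or litters, so p-values measure the spread between these samples.

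Interferons are secreted proteins that alert cells to infection. Interferons signal from receptors through JAK kinases to transcription factors in the nucleus. Type I and type III interferons act mainly through the interferon-stimulated response element (ISRE) in their target genes, and interferon-gamma mainly through the gamma-activated site (GAS). The genes switched on in this way encode sensors of viral RNA, enzymes that degrade it, proteins that block translation or trafficking of viral products, and regulators that feed back on the signal. In liver, hepatocytes, Kupffer cells, endothelial cells and immigrant leukocytes can all express them, and in bulk RNA a change in the number of cells of a type and a change in RNA per cell cannot be told apart.

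The libraries held between 15338239 and 22072884 reads on genes. The mean of Pparg was not lower in any labelled knockout group than in its control group: mean CPM (read counts scaled to a common library size with edgeR's TMM factors) ran from 10.4 to 34.2 in the control groups and from 15.4 to 56.3 in the labelled knockouts, and in HFCF males they were 32.3 ± 5.47 and 56.3 ± 6.18 (SD, n = 6 each). Gene-level counts add all exons and do not show whether the floxed exons were lost, so the Cre groups are called labelled knockouts throughout. Hepatocyte markers were the most abundant of the cell type markers in every group, with a median summed level of at least 54400 CPM for 8 genes. HF labelled knockout male replicate 4 had the highest level in its group for 35 of the 36 genes, and HF control female replicate 1 had a sum of macrophage markers of 385 CPM against a group median of 117 CPM. Counts that rest on these libraries are given with and without them. Other groups also had a library that was highest for most of the genes. Examples are HF control male replicate 3 (32 genes), HFCF labelled knockout male replicate 2 (30) and HFCF labelled knockout female replicate 2 (28).

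The proximal promoters are shown first, because ISRE matches were present both in genes that rose on HFCF diet and in genes that were not called. RefSeq promoters (GRCm38.p6, 250 bases before to 50 after the annotated start) matched 26 of the 36 genes. Where a gene had more than 1 RefSeq start, only the window nearest the annotated start of the gene was searched. Ifit2 and Sp100 were among the genes with 2 RefSeq starts. Promoters for Usp18, Oas2, Dhx58, Zbp1, Gbp6, Gbp10, Mx1, Mx2, Rtp4 and Parp14 were not analysed here. The ISRE was searched as a pair of GAAA runs with any 2 bases between them and the GAS as TTCNNNGAA, on both strands. An ISRE match was present in 15 of the 26 promoters and in 3.21% of 15582 mouse promoters of the same length, and a GAS match in 5 of the 26 (Bst2, Gbp7, Ifit2, Irf1 and Oas1a) and in 7.26% of all promoters. The following windows hold the 250 bases before the start, 5′ to 3′ on the gene's strand, with ISRE matches in capitals, or in the case of Ifit2 the GAS match. They were chosen by the calls on HFCF against HF diet below. Ifit2 and Oas3, called higher in every comparison, and Bst2, called higher in 3, are set beside Ifit1, called in none, and Isg15, called higher in 1.
Ifit2 (chr19:34550444-34550693, plus strand, GAS in capitals): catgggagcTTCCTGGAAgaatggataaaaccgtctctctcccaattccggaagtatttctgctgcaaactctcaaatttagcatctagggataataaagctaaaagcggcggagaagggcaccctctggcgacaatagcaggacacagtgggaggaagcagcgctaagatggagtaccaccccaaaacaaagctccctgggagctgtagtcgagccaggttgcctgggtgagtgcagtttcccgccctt
Oas3 (chr5:120777660-120777909, minus strand): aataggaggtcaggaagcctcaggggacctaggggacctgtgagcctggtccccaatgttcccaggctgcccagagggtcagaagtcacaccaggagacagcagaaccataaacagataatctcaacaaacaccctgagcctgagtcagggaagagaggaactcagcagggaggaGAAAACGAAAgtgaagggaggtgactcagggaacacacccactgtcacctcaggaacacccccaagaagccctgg
Bst2 (chr8:71537473-71537722, minus strand): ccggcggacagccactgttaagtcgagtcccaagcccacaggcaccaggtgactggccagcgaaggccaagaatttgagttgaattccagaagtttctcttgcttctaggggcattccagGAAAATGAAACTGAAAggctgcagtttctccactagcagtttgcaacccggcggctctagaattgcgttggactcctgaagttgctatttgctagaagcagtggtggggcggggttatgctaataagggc
Ifit1 (chr19:34640639-34640888, plus strand): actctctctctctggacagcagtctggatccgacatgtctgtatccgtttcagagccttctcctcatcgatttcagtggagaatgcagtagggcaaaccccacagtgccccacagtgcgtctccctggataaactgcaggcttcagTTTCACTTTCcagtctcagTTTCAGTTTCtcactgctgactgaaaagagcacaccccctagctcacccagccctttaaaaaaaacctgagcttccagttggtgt
Isg15 (chr4:156200819-156201068, minus strand): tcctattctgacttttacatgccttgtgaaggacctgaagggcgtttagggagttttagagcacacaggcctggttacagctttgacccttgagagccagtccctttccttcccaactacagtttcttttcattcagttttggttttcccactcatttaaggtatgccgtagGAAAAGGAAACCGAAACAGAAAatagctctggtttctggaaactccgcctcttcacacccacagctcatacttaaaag
The Ifit2 window held no ISRE match and a GAS match starting 241 bases before the start. The window of the other RefSeq start of Ifit2 was not searched, so an ISRE near that start could have been missed. Oas3 held 1 ISRE match, 75 bases before the start. In Ifit1, 2 ISRE matches lay on the reverse strand, 104 and 85 bases before the start. Isg15 held 3 overlapping ISRE matches from 78 bases before the start, and Bst2 held 2 overlapping matches from 130 bases before the start, the first of which also overlaps its GAS match. These matches are letters in a window and were not measured as bound sites.

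Per unit of gene length the 36 genes were expressed over a wide range. Taking the mean FPKM (fragments scaled to gene length and library depth, the authors' values) over all 48 libraries, Bst2, whose product tetherin holds budding virus at the cell surface, was the most abundant at 189. Isg15, a ubiquitin-like protein joined to other proteins, followed at 18.7, then Irf7, the transcription factor that amplifies type I interferon production, at 18.2 and Stat2 at 17.6. Oas3, which makes the 2-5A messenger that activates RNase L, was the least abundant at 0.863, with group means from 0.441 in HF control females to 1.68 in HFCF control females. The GTPase Mx1 lay just above it at 1.66. The lowest count of any of the 36 genes in any library was 18 reads, for Oas1g.

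The question of the HFCF comparisons is how the liver differs after the steatohepatitis diet from livers kept on HF diet, and they were made separately in control males, labelled knockout males, control females and labelled knockout females. These 4 comparisons share no libraries. A group of antiviral genes rose in all 4: Ifit2 (1.70 to 2.99-fold), Oas3 (2.0 to 3.77-fold), Oasl2 (1.89 to 2.93-fold) and Sp100 (1.48 to 1.97-fold). Oas1a, Oas1g, Oas2, Bst2 and Trim30a were called higher in 3 of the 4, Ifi44 and Parp14 in 2, and Irf7, Isg15, Rtp4 and Xaf1 in 1. Of these, Oas1a, Oas1g, Oas2, Bst2, Trim30a, Parp14 and Xaf1 had positive log2 fold changes in all 4. A missing call therefore does not show that a gene did not rise. The other 21 genes were called higher in none, and Gbp7 was called lower in both comparisons of females. A gene was called where edgeR's quasi-likelihood test gave a Benjamini-Hochberg adjusted p under 0.05 over all genes tested.

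**Figure D1:**
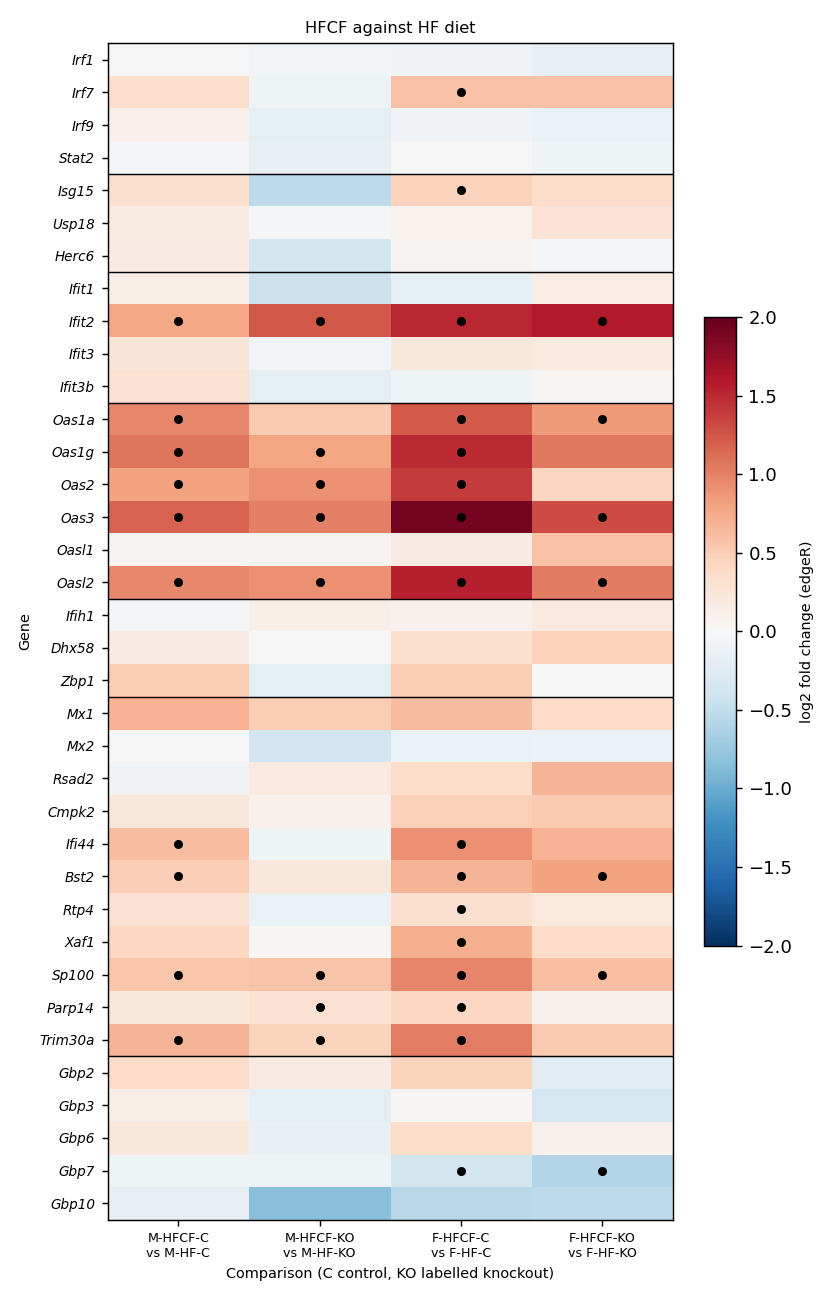
Log2 fold change of each of the 36 genes (rows, grouped by role) on HFCF relative to HF diet in the 4 comparisons (columns), with colour from blue (-2) to red (2) and a black dot where the gene was called. Dots fill the rows of Oas3, Oasl2, Ifit2 and Sp100 and 3 of the 4 columns for Oas1a, Oas1g, Oas2, Bst2 and Trim30a, while the other Ifit genes and the Gbp genes have none but Gbp7, which was lower in females.

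In control males 10 genes were called higher and 0 lower, beside 13.0% of 14475 genes tested called higher and 9.31% called lower. In labelled knockout males 8 were called higher and 0 lower, against 21.6% and 20% of all genes. In control females 15 were called higher and 1 lower, against 16.9% and 13.8%, and in labelled knockout females 6 and 1, against 8.44% and 6.01%. As a share of 36 genes, 8 genes in labelled knockout males is close to the background of that comparison. The median log2 fold change of the 36 genes was 0.28 in control males, -0.01 in labelled knockout males, 0.39 in control females and 0.31 in labelled knockout females, beside all-gene medians near 0. The median of labelled knockout males rested on HF labelled knockout replicate 4: without it the median was 0.29, with 29 of 36 genes above 0 and 11 called, all higher. Without HF labelled knockout replicate 6 it was -0.10, with 6 genes called higher and 5 lower (Gbp10, Mx2, Irf9, Herc6 and Stat2), and without HFCF labelled knockout replicate 2, 5 were called higher and Irf9 lower. The count was 5 without HF labelled knockout replicate 1 or HFCF labelled knockout replicate 3. In control females it was 21 without HF control replicate 1. For labelled knockout females it was 4 without HF labelled knockout replicate 1, 3 without replicate 4 and 13 without replicate 3.

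The 2'-5'-oligoadenylate synthetases bind double-stranded RNA and make the messenger that activates RNase L. Of the 6 Oas genes, 5 were called higher in control males, 4 in labelled knockout males, 5 in control females and 3 in labelled knockout females, with median log2 fold changes of 0.96, 0.85, 1.44 and 0.95. Oasl1, which inhibits translation of Irf7 rather than making 2-5A, was called in none of the 4, with log2 fold changes of 0.06, 0.06, 0.16 and 0.59. Oas1a and Oas1g share much of their sequence: 57.6% of the 50-base words of Oas1a transcripts occur in another gene's transcripts, so how reads divide between them is uncertain.

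Oas3 (chr5:120753098-120777661, minus strand) ranged in control males from 2.58 through a median of 3.77 to 4.45 CPM on HF diet, and from 3.85 through 8.30 to 13.1 CPM on HFCF diet. Among labelled knockout males it ran from 1.82 through 4.19 to 7.92 CPM on HF diet and from 6.93 through 8.76 to 10.1 CPM on HFCF diet. The male groups overlapped at their edges, with the lowest HFCF level inside the HF range. Control females had 4.57, 2.87, 2.82 and 2.42 CPM on HF diet and 9.47, 13.9, 10.4 and 13.6 CPM on HFCF diet. Labelled knockout females had 2.58, 3.57, 4.47 and 3.85 CPM on HF diet and 5.66, 12.7, 8.26 and 9.23 CPM on HFCF diet. In females every HFCF library was above every HF library. The log2 fold changes were 1.18 (SE 0.23, adjusted p = 0.00319), 1.0 (SE 0.26, adjusted p = 0.00566), 1.91 (SE 0.23, adjusted p = 0.00446) and 1.31 (SE 0.27, adjusted p = 0.0116) in the order above. Oas3 was called in every fit that left out 1 library, in all 4 comparisons.

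Oasl2, a 2-5A synthetase that also carries ubiquitin-like domains, had 9.94, 13.3 and 17.2 CPM as lowest, median and highest in HF control males and 14.0, 25.8 and 37.1 CPM in HFCF control males. For labelled knockout males these values were 7.78, 11.8 and 29.3 CPM on HF diet and 21.8, 25.3 and 36.4 CPM on HFCF diet. The HF labelled knockout male with 29.3 CPM was replicate 4, which is taken up below, and the groups overlapped in both male comparisons. Among control females Oasl2 measured 20.2, 6.66, 12.6 and 7.69 CPM on HF diet and 30.9, 37.7, 25.8 and 42.8 CPM on HFCF diet. Labelled knockout females had 11.8, 13.3, 16.8 and 11 CPM on HF diet and 17.3, 38.3, 26.3 and 27.2 CPM on HFCF diet. No female HFCF library lay inside the HF range. Its log2 fold changes were 0.96 (SE 0.19) and 0.92 (SE 0.26) in males and 1.55 (SE 0.33) and 1.04 (SE 0.23) in females, controls first. In labelled knockout females the call was lost without HF replicate 1 or replicate 4 (largest adjusted p = 0.053).

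The Ifit genes encode proteins with tetratricopeptide repeats that bind foreign RNA and block its translation, and they lie next to each other on chromosome 19. Of the 4 Ifit genes, Ifit2 alone was called on HFCF diet, in each of the 4 comparisons. In control males Ifit2 (chr19:34550694-34576419, plus strand) ran from 7.83 through a median of 9.67 to 14.2 CPM on HF diet and from 9.04 through 16.4 to 22.9 CPM on HFCF diet. In labelled knockout males it ran from 4.74 through 6.64 to 13.4 CPM on HF diet and from 15 through 18.0 to 24.5 CPM on HFCF diet. The groups overlapped in control males and were separate in labelled knockout males. Control females had 14.9, 5.11, 7.89 and 3.22 CPM on HF diet and 25.7, 22.1, 18.0 and 22.7 CPM on HFCF diet, and labelled knockout females 5.64, 6.09, 7.45 and 7.34 CPM and 14.3, 27.1, 17.3 and 20.3 CPM. Both female comparisons were separate. The log2 fold changes were 0.77 (SE 0.20, adjusted p = 0.0132), 1.24 (SE 0.24, adjusted p = 0.000807), 1.51 (SE 0.38, adjusted p = 0.0178) and 1.58 (SE 0.21, adjusted p = 0.00247). In control females the call was lost without HF replicate 2 or without HFCF replicate 1 (largest adjusted p = 0.0515).

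Its neighbour Ifit1 went on showing overlapping groups. HF and HFCF control males ran from 11.1 to 21.9 CPM (median 13.6) and from 8.57 to 23.6 CPM (median 15.3), and labelled knockout males from 15.1 to 64.8 CPM (median 21) and from 12.5 to 39.3 CPM (median 16.9). Control females had 24.9, 22.2, 19.5 and 16.2 CPM on HF diet and 22.5, 15.9, 16.5 and 17.2 CPM on HFCF diet. Labelled knockout females had 15.4, 15.6, 27.5 and 26.9 CPM and 28.7, 31.5, 18.1 and 16.6 CPM. Its log2 fold changes were 0.13 (SE 0.21), -0.43 (SE 0.35), -0.18 (SE 0.15) and 0.15 (SE 0.27), none of them called. Ifit3 and Ifit3b, of which 51.2% and 45.0% of 50-base words occur in another gene, were called in none of the 4 either.

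**Figure D2:**
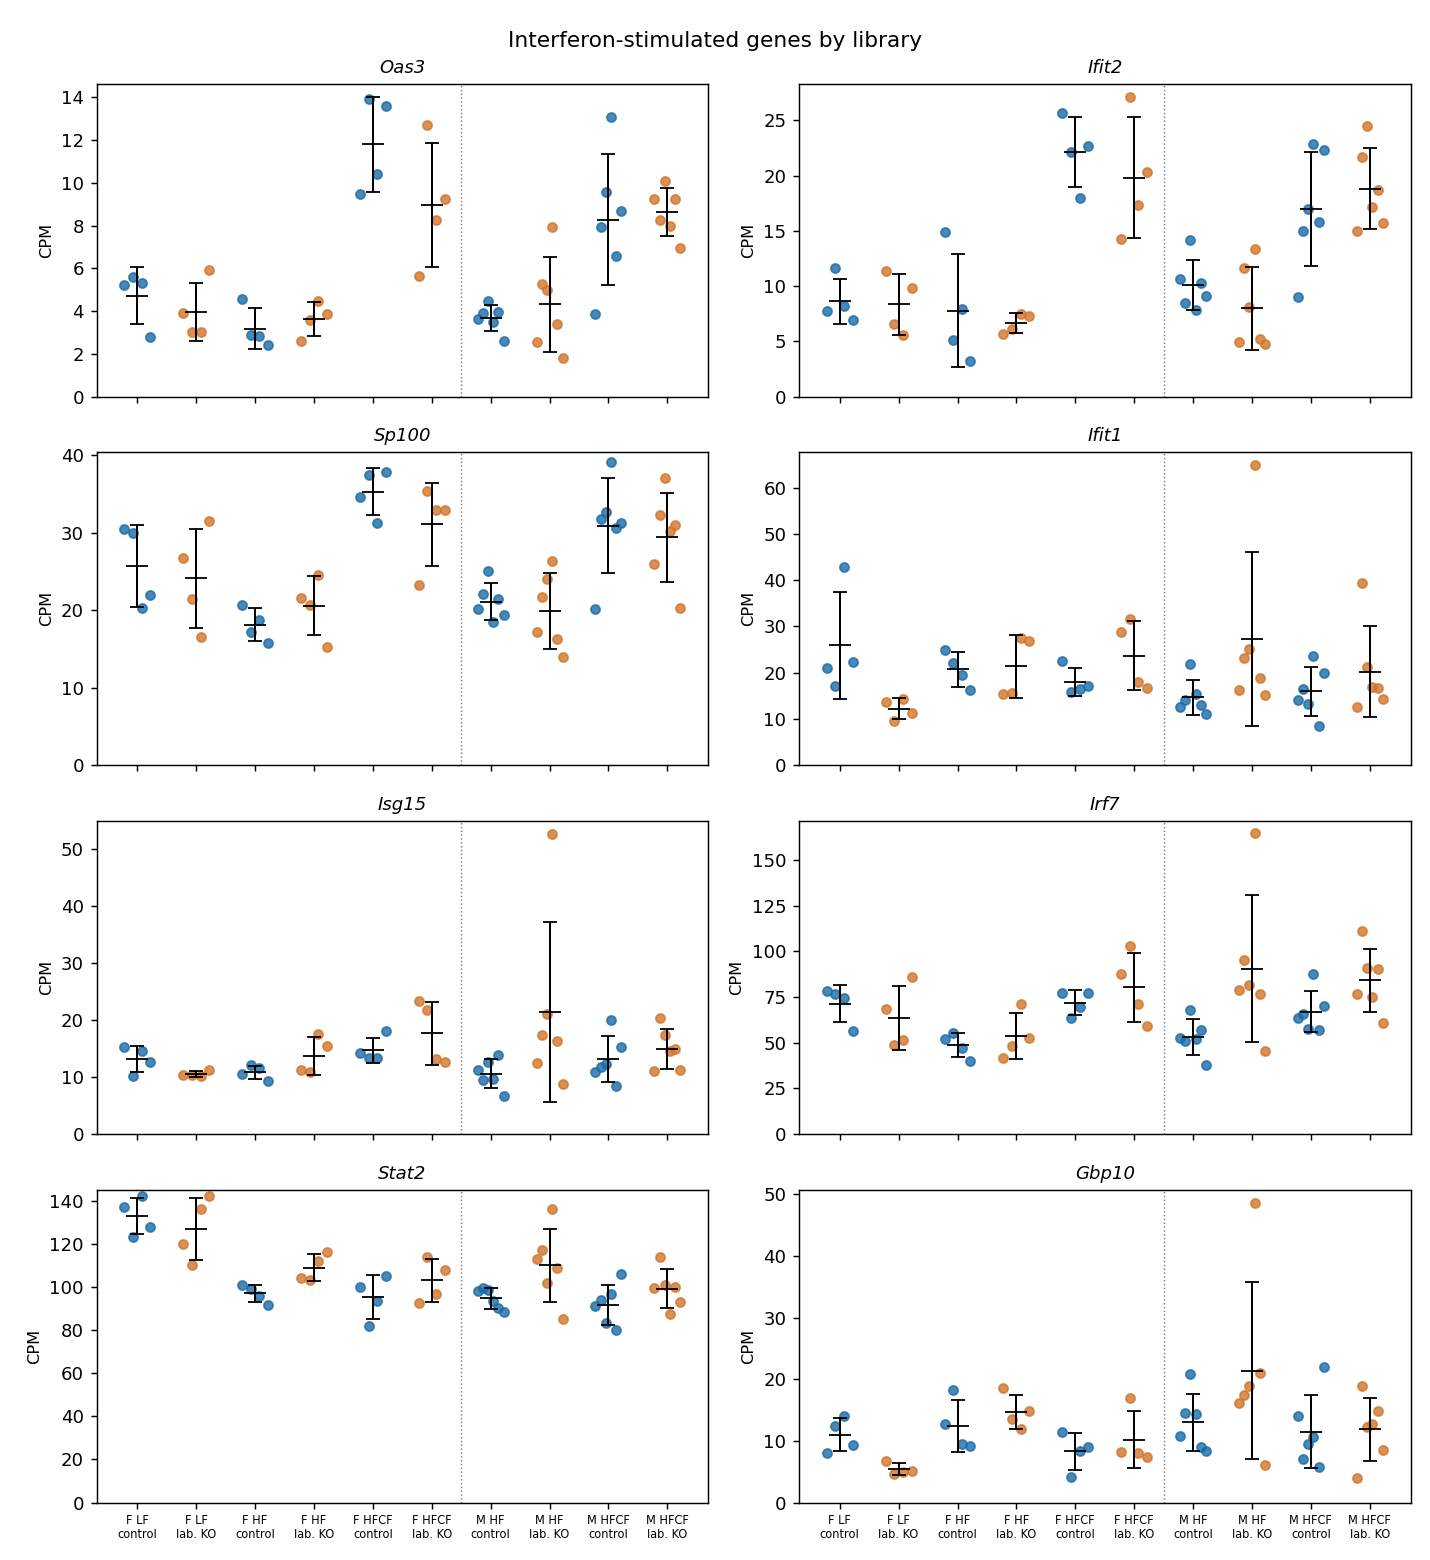
CPM of 8 genes in each library of the 10 groups (M, males; F, females; LF, HF and HFCF, diets), with control libraries in blue, labelled knockout libraries in orange and black bars for the mean ± SD. Oas3, Ifit2 and Sp100 are higher in the HFCF groups than in the HF groups, while Ifit1, Stat2 and Gbp10 overlap between these diets. Ifit1 and Gbp10 each show a single high library among HF labelled knockout males.

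Among the other antiviral effectors, Sp100, a component of nuclear bodies that restrict viral DNA, was called higher in all 4 comparisons. It had a lowest, median and highest level of 18.5, 20.7 and 25.1 CPM in HF control males and 20.1, 31.5 and 39.1 CPM in HFCF control males. In labelled knockout males it ran from 14.0 to 26.4 CPM on HF diet and from 20.3 to 37.0 CPM on HFCF diet. HF and HFCF control females were separate, at 20.7, 17.2, 18.7 and 15.8 CPM and 34.6, 37.4, 31.3 and 37.8 CPM. Labelled knockout females had 21.6, 20.7, 24.6 and 15.3 CPM on HF diet and 23.3, 35.4, 32.9 and 32.9 CPM on HFCF diet, and overlapped by 1 library. The log2 fold changes were 0.56 (SE 0.12), 0.57 (SE 0.16), 0.98 (SE 0.11) and 0.60 (SE 0.18). In labelled knockout females the call rested on single libraries: leaving out 1 at a time kept it in 2 of 8 fits (largest adjusted p = 0.122).

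Bst2 had 96.8, 128 and 175 CPM as lowest, median and highest in HF control males and 158, 183 and 212 CPM in HFCF control males, a log2 fold change of 0.49 (SE 0.11, adjusted p = 0.00732). In control females it rose from 126, 113, 115 and 110.0 CPM to 194, 176, 170.0 and 194 CPM, a log2 fold change of 0.68 (SE 0.08, adjusted p = 0.00446). In labelled knockout females it rose from 113, 128, 147 and 139 CPM to 314, 205, 203 and 202 CPM, a log2 fold change of 0.81 (SE 0.16, adjusted p = 0.0109). The female groups were separate, and 1 HFCF labelled knockout library stood above the other 3. In labelled knockout males the log2 fold change was 0.23 (SE 0.15) and was not called. Trim30a, a ubiquitin ligase family member that damps inflammatory signalling, was called in control males (log2 fold change 0.68, SE 0.16), labelled knockout males (0.45, SE 0.16) and control females (1.03, SE 0.17). Parp14, an ADP-ribosyltransferase, was called in labelled knockout males (0.31, SE 0.11) and control females (0.41, SE 0.07), and Ifi44 in control males (0.61, SE 0.19) and control females (0.91, SE 0.31). Leaving out 1 library at a time kept the call of Ifi44 in 5 of 12 fits for control males and 2 of 8 for control females. In labelled knockout males it kept those of Trim30a and Parp14 in 6 of 12 fits each.

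The signalling core gave 1 call in the 4 comparisons. Of Irf1, Irf7, Irf9 and Stat2, Irf7 alone was called, and in control females only: it had 52.2, 55.4, 47.3 and 40.1 CPM on HF diet and 77.4, 63.4, 69.5 and 77.1 CPM on HFCF diet, a log2 fold change of 0.58 (SE 0.11, adjusted p = 0.00827). In labelled knockout females the log2 fold change of Irf7 was also 0.58 (adjusted p = 0.0819). It was 0.35 in control males and -0.10 in labelled knockout males. Stat2, a subunit of the ISRE-binding complex, had log2 fold changes of -0.04 (SE 0.07), -0.15 (SE 0.10), -0.01 (SE 0.09) and -0.08 (SE 0.11). Its HF and HFCF medians in control males were 95.9 CPM (88.2 to 99.6) and 92.6 CPM (80.1 to 106), and in labelled knockout males 111 CPM (85.2 to 136) and 99.8 CPM (87.3 to 114). Control females had 101, 99.0, 96.0 and 91.8 CPM on HF diet and 99.9, 81.8, 93.7 and 105 CPM on HFCF diet, and labelled knockout females 104, 103, 112 and 116 CPM and 92.6, 114, 96.8 and 108 CPM. The ranges overlapped in all 4 comparisons.

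The ISG15 system attaches Isg15 to other proteins, through ligases such as Herc6, and removes it through the protease Usp18, which also blocks the type I receptor. Isg15 was called in control females, from 10.5, 12.1, 11.5 and 9.36 CPM to 14.2, 13.4, 13.3 and 18.0 CPM (log2 fold change 0.46, SE 0.13, adjusted p = 0.0292), and leaving out 1 library at a time kept this call in 3 of 8 fits. Usp18 had log2 fold changes of 0.18 (SE 0.15), -0.02 (SE 0.29), 0.07 (SE 0.19) and 0.27 (SE 0.19). In control females its levels were 24.4, 23.4, 18.0 and 13.3 CPM on HF diet and 23.3, 19.2, 17.4 and 22.3 CPM on HFCF diet. The 2 diets overlapped for Usp18 in each comparison. Rsad2 (viperin), an enzyme that makes a chain terminator of viral RNA, had 19.7, 10.8, 14.6 and 11 CPM and 23.0, 13.0, 15.2 and 20.1 CPM in the same groups, and it and its neighbour Cmpk2 were called in none of the 4.

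The guanylate-binding proteins are GTPases induced mostly by interferon-gamma that attack vacuoles of intracellular microbes. None of the 5 was called higher in any of the 4 comparisons. Gbp7 had 35.7, 33.3, 30.1 and 33.3 CPM in HF control females and 27.7, 22.3, 29.7 and 21.9 CPM in HFCF control females (log2 fold change -0.36, SE 0.12, adjusted p = 0.0401). In labelled knockout females it had 42.0, 32.0, 32.0 and 44.3 CPM and 22.3, 29.0, 28.5 and 20.3 CPM (-0.58, SE 0.15, adjusted p = 0.0334). The female groups were separate, but leaving out 1 library at a time kept the call in 1 of 8 fits for controls and 4 of 8 for labelled knockouts. In males Gbp7 had log2 fold changes of -0.08 (SE 0.15) and -0.10 (SE 0.15). Gbp6 and Gbp10 share reads, since 70.7% and 84.1% of their 50-base words occur in other genes, each other and Gm43302 among them, so they are not separate observations. Gbp10 had log2 fold changes of -0.17 (SE 0.29), -0.84 (SE 0.39), -0.56 (SE 0.31) and -0.52 (SE 0.26), and Gbp2 had 0.38 (SE 0.27), 0.17 (SE 0.21), 0.44 (SE 0.22) and -0.23 (SE 0.24). Gbp2 ran from 7.24 to 19.3 CPM in HF and from 7.51 to 23.1 CPM in HFCF control males, and from 8.56 to 14.3 CPM in HF and from 12.2 to 20.5 CPM in HFCF control females, overlapping in both sexes.

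Cell type markers moved with the diet. Of 10 markers of monocyte-derived and lipid-associated macrophages, 9, 9, 10 and 6 were called higher on HFCF diet in control males, labelled knockout males, control females and labelled knockout females. The sum of these 10 genes ran from 191 to 322 CPM in HF control males and from 274 to 870.0 CPM in HFCF control males, from 113 to 203 and from 399 to 898 CPM in labelled knockout males, from 73.3 to 385 and from 514 to 901 CPM in control females, and from 109 to 221 and from 398 to 761 CPM in labelled knockout females. None of the 10 was at 0 in any of these groups. Of 4 cholangiocyte markers, all 4 were called higher in each comparison, and of 6 hepatic stellate cell markers 4, 5, 1 and 5. The 1 of 6 stellate cell markers in control females is near the share of all genes called higher there. The stellate sum ran from 253 to 398 CPM in HF and from 318 to 625 CPM in HFCF control males, from 174 to 230.0 and from 307 to 601 CPM in labelled knockout males, from 104 to 472 and from 432 to 745 CPM in control females, and from 119 to 211 and from 301 to 561 CPM in labelled knockout females. Of 6 markers of plasmacytoid dendritic cells, which are known as strong producers of type I interferon, 2 could be tested in each comparison. Ly6d was called higher in all 4 comparisons and Siglech in labelled knockout females. The markers that could not be tested did not pass the filter on low counts, so the sum of the 6 rests mainly on the tested genes. By itself this sum cannot be read as a level of these cells. The sum of the 6 ran from 20.6 to 57.6 CPM in HF and from 42.5 to 88.7 CPM in HFCF control males, from 1.95 to 7.86 and from 30.6 to 69.6 CPM in labelled knockout males, from 3.66 to 45.4 and from 66.7 to 141 CPM in control females, and from 1.47 to 4.57 and from 29.5 to 94.6 CPM in labelled knockout females. Of 8 hepatocyte markers, 3, 7, 5 and 0 were called lower, and of 5 red blood cell markers all 5 were called lower in labelled knockout males. The part of these cell types in the rise of the Oas genes, Ifit2, Sp100 and Bst2 was not tested.

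ISRE matches were present on both sides of this division. Of the 9 genes called higher in 3 or 4 comparisons, 8 had a promoter and 5 of those an ISRE match, and of the 21 called higher in none, 14 had a promoter and 9 an ISRE match. GAS matches were present in 3 of the 8 and 2 of the 14. The 8 with a promoter include Oasl2 and Sp100, which held no match of either kind in this window, and the 14 include Ifit1 with 2 ISRE matches. For Sp100 and Ifit2 only 1 of 2 RefSeq starts was searched.

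Upstream of the interferon-stimulated genes, a list of 18 sensors and adaptors of interferon induction had 8 genes called higher and 1 lower on HFCF diet in control males, 11 and 2 in labelled knockout males, 11 and 2 in control females and 3 and 0 in labelled knockout females. In control males Irf5, a transcription factor downstream of endosomal receptors, had a log2 fold change of 0.86 (SE 0.12, adjusted p = 0.00094), and Tmem173, the adaptor STING, 0.97 (SE 0.18, adjusted p = 0.00227). In labelled knockout males the endosomal RNA receptors Tlr8 (1.34, SE 0.14) and Tlr7 (1.21, SE 0.16) rose. Mavs, the mitochondrial adaptor of the RIG-I pathway, was called lower in control males (-0.37, SE 0.10), labelled knockout males (-0.44, SE 0.05) and control females (-0.34, SE 0.10). In females Ifi204, a DNA sensor, rose in controls (1.25, SE 0.15) and in labelled knockouts (1.15, SE 0.21).

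Receptor and kinase genes gave fewer calls: 2, 5, 4 and 1 of 11 were called higher in the same order and 0, 1, 0 and 0 lower. The shares of all genes are those given above for the sensors and adaptors. Ifngr1, a chain of the interferon-gamma receptor, rose in control males (0.51, SE 0.10), labelled knockout males (0.55, SE 0.08) and control females (0.68, SE 0.16). Il10rb, a chain shared by the interferon-lambda and interleukin-10 receptors, rose in the same 3 comparisons (0.59, SE 0.13; 0.87, SE 0.10; 0.79, SE 0.19). Ifnlr1, the specific chain of the interferon-lambda receptor, rose in labelled knockout males (2.54, SE 0.37) and control females (1.99, SE 0.47). Of 42 further interferon-stimulated genes, 12, 11, 16 and 6 were called higher and 0, 5, 3 and 0 lower, and Ifi27l2a rose in control males (1.03, SE 0.19), control females (1.52, SE 0.26) and labelled knockout females (1.24, SE 0.23). The 11 of 42 called higher in labelled knockout males are near the 21.6% of all genes called higher there. The interferon genes with values in the tables were Ifna14, Ifnb1, Ifnk, Ifnz and Ifng; the highest count in any library was 8 reads, for Ifng, and none could be tested. At this depth a difference in interferon RNA was not detectable, and the other interferon genes were not analysed here.

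The difference between the sexes in the response to HFCF diet was tested as an interaction. It was called for 0 of 36 genes in controls and 0 in labelled knockouts, beside 0.00646% and 0.0130% of all genes tested. At an unadjusted p under 0.05 edgeR gave 2 and 2 of the 36, and DESeq2's Wald test called 0 in each. In controls Ifit2 was called when HF control female replicate 1 was left out, with the smaller rise in males. With all libraries the fold changes of Oas3 and Ifit2, larger in control females than in control males, did not pass this test, and for Ifit2 that rests on this 1 library.

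**Figure D3:**
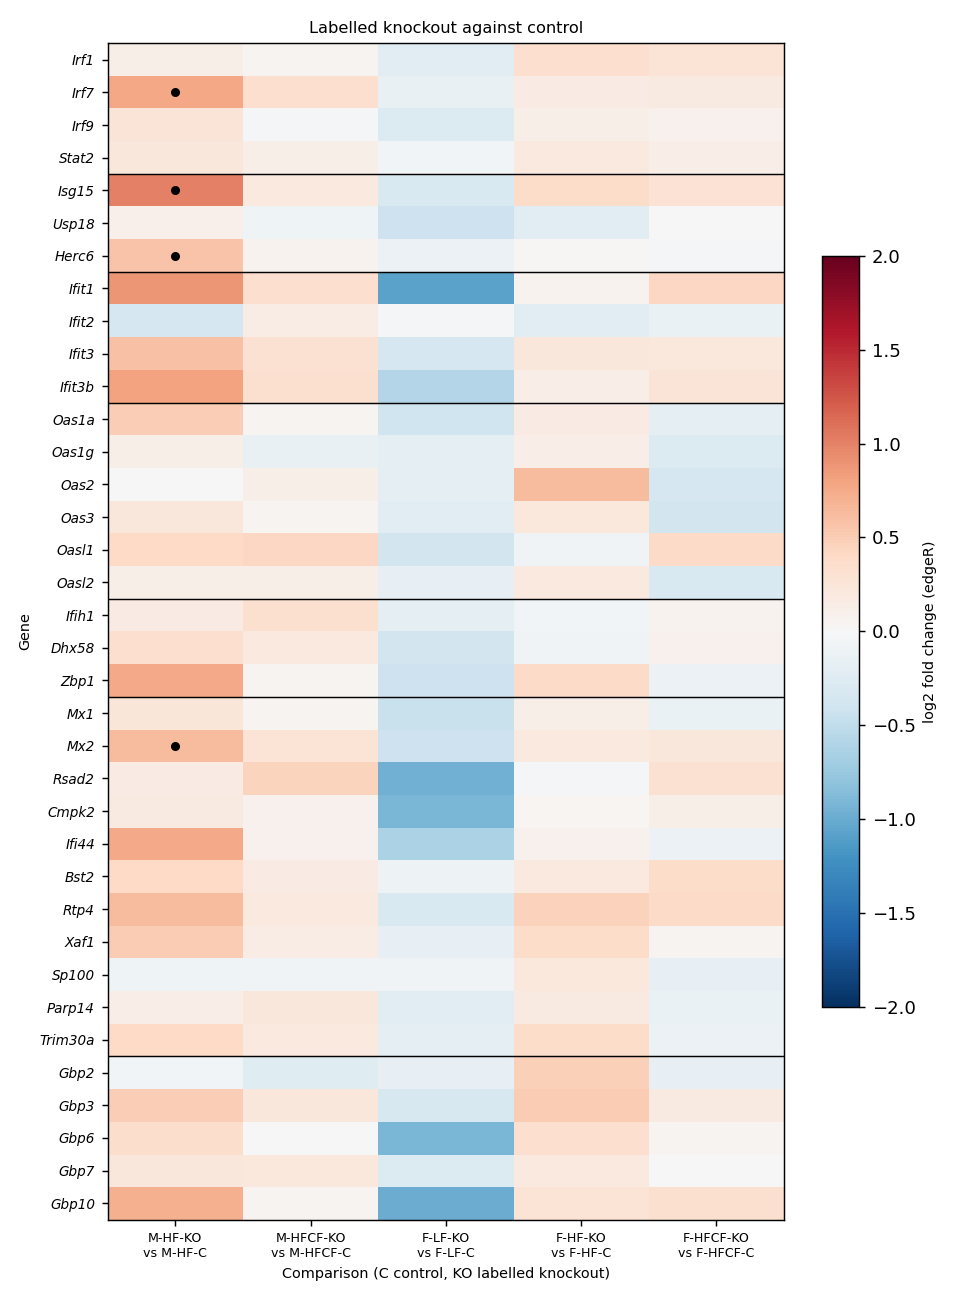
Log2 fold change of the 36 genes (rows, grouped by role) in labelled knockouts relative to controls in the 5 pairs of sex and diet (columns), with colour from blue (-2) to red (2) and a black dot where the gene was called. Black dots appear in HF males only (Herc6, Irf7, Mx2 and Isg15), and the column of LF females is blue throughout.

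Labelled knockouts were compared with controls within each sex and diet, which asks what loss of PPARgamma in hepatocytes does. In HF males 4 of the 36 genes were called higher and 0 lower, beside 8.57% of 14041 genes called higher and 9.88% lower, a share of the 36 close to the background. Herc6, an ISG15 ligase, had a lowest, median and highest level of 12.1, 14.1 and 15.9 CPM in controls and 13.6, 20 and 33.0 CPM in labelled knockouts (log2 fold change 0.57, SE 0.16, adjusted p = 0.0231). Irf7, which overlaps Phrf1 (up to 685 reads in a library), had 37.5, 52.2 and 68.0 CPM and 45.4, 80.2 and 165 CPM (0.77, SE 0.22, adjusted p = 0.0252). Mx2, an interferon-induced GTPase that the deposited tables annotate as a polymorphic pseudogene, had 3.96, 6.26 and 8.34 CPM and 6.03, 9.89 and 15.4 CPM (0.64, SE 0.20, adjusted p = 0.0337). Isg15 had 6.66, 10.4 and 13.8 CPM and 8.82, 16.8 and 52.6 CPM (1.01, SE 0.34, adjusted p = 0.0463). All 4 pairs of groups overlapped. In all, 13 of the 36 had an unadjusted p under 0.05, each of them higher, and the median log2 fold change was 0.34 with 32 of 36 above 0, beside 50% of all genes.

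The spread inside this labelled knockout group was the widest of the 10, with an SD of 0.52 for the mean log2(CPM + 0.5) of the 36 genes against 0.14 to 0.28 in the other groups. Replicate 4 had the highest level in its group for 35 of the 36 genes, with 52.6 CPM of Isg15 and 64.8 CPM of Ifit1, and replicate 6 had the lowest level for 30 of them. That mean was 5.22 in replicate 4 and 3.66 in replicate 6. Among the controls, replicate 3 was highest for 32 genes (mean 4.45) and replicate 6 lowest for 28 (mean 3.69). Without labelled knockout replicate 4, 2 genes were called (Herc6 and Irf7) and the median was 0.15. Without labelled knockout replicate 6, 14 were called. Counts of 2 were also reached without labelled knockout replicate 2 or 3 or control replicate 2, of 1 without control replicate 1 or 5, and of 0 without control replicate 6. Irf7 was called in 11 of the 12 fits that left out 1 library, Herc6 in 9, Mx2 in 4 and Isg15 in 2. In the same comparison 6 of 10 macrophage markers were called lower, 6 of 8 hepatocyte markers higher and 3 of 5 red blood cell markers higher, the last with sums from 166 to 247 CPM in controls and from 164 to 817 CPM in labelled knockouts. The sum of the plasmacytoid dendritic cell list ran from 20.6 to 57.6 CPM in controls and from 1.95 to 7.86 CPM in labelled knockouts, with Ly6d called lower (1 of 2 tested). The other markers of that list were too low to test, so this sum cannot be read as a level of these cells. Of 6 stellate cell markers 3 were called lower, and of 7 resident Kupffer cell markers Clec4f was called higher. Beside these counts, 8.57% of all genes were called higher and 9.88% lower. The part of these cell types in the 4 calls was not tested.

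**Figure D4:**
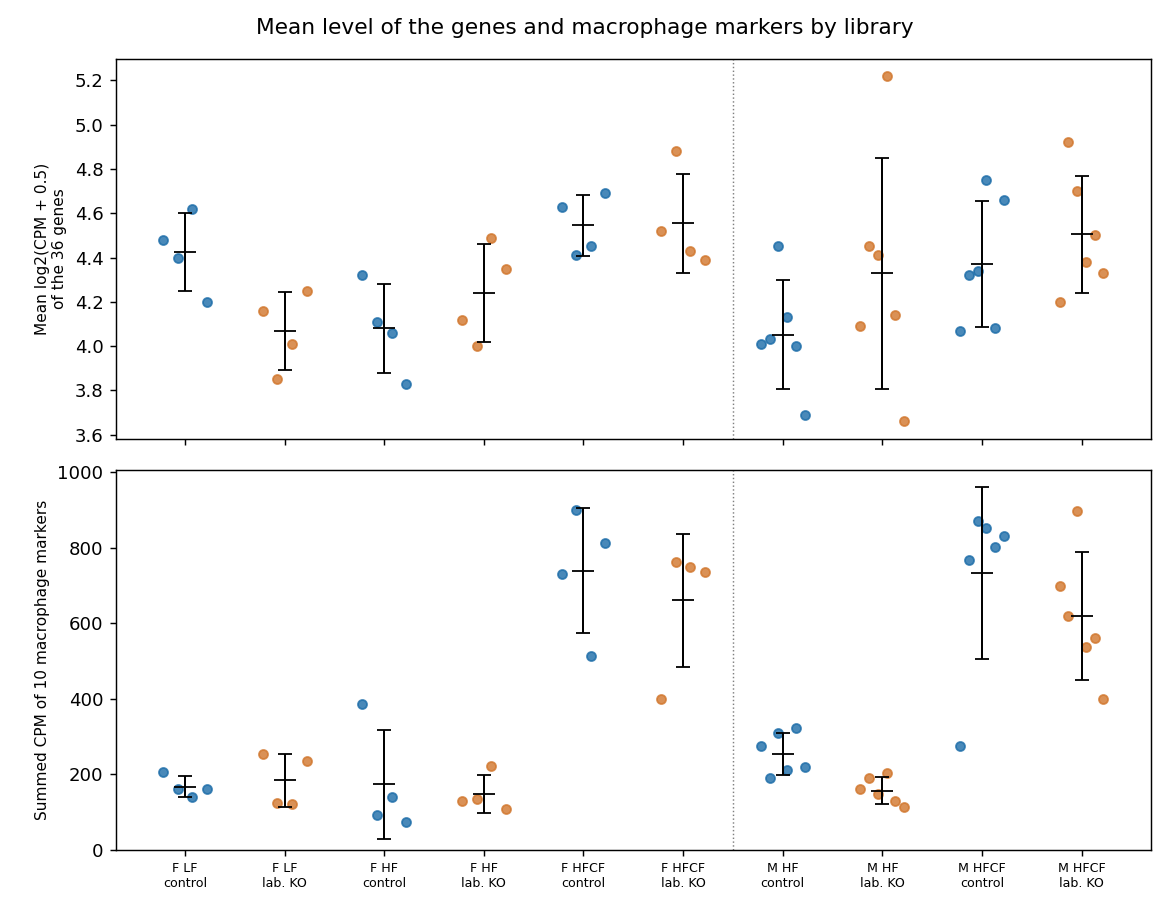
Mean log2(CPM + 0.5) of the 36 genes (top) and summed CPM of 10 macrophage markers (bottom) in each library of the 10 groups, controls in blue and labelled knockouts in orange, with black bars for the mean ± SD. HF labelled knockout males spread from 3.66 (replicate 6) to 5.22 (replicate 4) on the top axis. Their macrophage sums ran from 113 CPM in replicate 6 to 203 CPM in replicate 4. The part of macrophages in this spread was not tested.

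In the other pairs no gene of the 36 was called. HFCF males had 0 called beside 2.21% of all genes (0.933% higher and 1.27% lower), 3 at an unadjusted p under 0.05 (Ifih1, Oasl1 and Irf7, all higher) and 1 by DESeq2's Wald test. Ifih1, which encodes the RNA sensor MDA5, came closest, with a log2 fold change of 0.32 (SE 0.09, adjusted p = 0.0675). HF females had 0 called beside 0.0% of all genes, 6 at an unadjusted p under 0.05 (all higher) and 0 by DESeq2, with a median log2 fold change of 0.19. HFCF females had 0 called beside 0.0534% of all genes (0.00668% higher and 0.0467% lower), 3 at an unadjusted p under 0.05 (Oasl1, Rtp4 and Bst2, all higher) and 0 by DESeq2, with a median of 0.07.

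In LF females all differences pointed to lower levels in labelled knockouts, and none passed the test. edgeR called 0 of the 36 genes and 0.0% of 14285 genes, and all 36 log2 fold changes were negative, with a median of -0.29, while 51.7% of all genes were positive. At an unadjusted p under 0.05 edgeR gave 12 of the 36, all lower, and DESeq2's Wald test called 2, both lower. Gbp6 had 9.97, 12.2, 12.2 and 11.7 CPM in controls and 7.02, 5.08, 5.88 and 6.14 CPM in labelled knockouts (log2 fold change -0.92, SE 0.15, adjusted p = 0.925). Gbp10, whose reads cannot be fully told from those of Gbp6, had 8.07, 12.5, 14.0 and 9.42 CPM and 6.79, 4.68, 5.03 and 5.19 CPM (-1.0, SE 0.20, adjusted p = 0.925). Ifit1 had 21.1, 17.2, 42.8 and 22.3 CPM and 13.6, 9.49, 14.4 and 11.3 CPM (-1.07, SE 0.26, adjusted p = 1). For these 3 genes the groups were separate, as they were for Dhx58, Cmpk2 and Gbp3, although none passed the correction over all genes. The genes share libraries and tend to be high or low together in a library, so the 36 directions are not 36 independent observations. The mean log2(CPM + 0.5) of the set was 4.43 ± 0.18 in controls and 4.07 ± 0.18 in labelled knockouts (SD, n = 4 each).

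The change of the labelled knockout difference from LF to HF diet in females was tested as an interaction. None of the 36 genes was called by edgeR or DESeq2, beside 0.0% of all genes, and 14 had an unadjusted p under 0.05, all in the direction of a higher labelled knockout difference on HF diet. The interaction was positive for 35 of 36 genes with a median of 0.56, beside 50.2% positive among all genes. Gbp10 had 1.28 (SE 0.32, unadjusted p = 0.000958) and Gbp6, with which it shares reads, 1.26 (SE 0.29, unadjusted p = 0.00049). The same interaction for HFCF against LF diet, chosen after seeing the data, also called 0 genes by either tool, with 13 at an unadjusted p under 0.05, all positive, and a median of 0.34. Both interactions use the same LF libraries, so they are not independent. The labelled knockout difference was not called as differing between HFCF and HF diet in males (0 of 36 genes, beside 1.56% of all genes; 2 at an unadjusted p under 0.05, 0 by DESeq2) or females (0, beside 0.0%; 1 and 0), nor between the sexes on HF diet (0, beside 0.0%; 1 and 0) or HFCF diet (0, beside 0.0%; 0 and 0).

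The LF females also allow each richer diet to be set against a labelled healthy liver. The HF and HFCF comparisons in controls share the LF control libraries, and those in labelled knockouts share the LF labelled knockout libraries. On HF diet, control females had 0 genes called higher and 2 called lower, beside 0.443% and 0.253% of all genes (0.696% in all). The median log2 fold change of the 36 genes was -0.41, with 30 below 0, while 49.6% of all genes were above 0. At an unadjusted p under 0.05 edgeR gave 14 of the 36, all lower, and DESeq2's Wald test called 9, all lower. These HF control libraries are also the reference of the HFCF against HF comparison in control females. Rtp4, a chaperone of receptors, fell from 30.8, 39.5, 40.4 and 33.6 CPM to 21.4, 24.4, 20.7 and 24.7 CPM (log2 fold change -0.67, SE 0.11, adjusted p = 0.0322). Stat2 fell from 137, 123, 142 and 128 CPM to 101, 99.0, 96.0 and 91.8 CPM (-0.46, SE 0.08, adjusted p = 0.0423). Both pairs of groups were separate, and leaving out 1 library at a time kept each call in 1 of 8 fits. The count was 0 without LF control replicate 2, 3 or 4 or HF control replicate 3 or 4, and 1 without HF control replicate 1 or 2. Rtp4 overlaps Masp1, which had up to 4197 reads in a library, and without strand information reads of the overlap cannot be assigned.

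In labelled knockout females on HF diet 1 gene was called higher and 0 lower, beside 0.0704% and 0.0844% of all genes. Gbp10 rose from 6.79, 4.68, 5.03 and 5.19 CPM to 18.5, 13.6, 12 and 14.8 CPM (log2 fold change 1.44, SE 0.17, adjusted p = 0.0181). No library of either group lay within the range of the other. The call was lost without LF labelled knockout replicate 2 or 4 or HF labelled knockout replicate 1 or 2, which leaves 0 called.

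On HFCF diet control females had calls in both directions relative to LF diet, with 8 genes called higher and 6 lower, beside 18.4% and 16.8% of all genes, shares close to the background. The higher ones were Ifit2, Oas3, Oasl2, Trim30a, Oas1g, Oas1a, Ifih1 and Sp100, and the lower ones Irf9, Irf1, Stat2, Rtp4, Mx2 and Gbp7. Irf9, the DNA-binding subunit of the ISRE complex, fell from 63.8, 67.4, 76.0 and 69.0 CPM to 50.6, 45.0, 50.1 and 53.5 CPM (log2 fold change -0.49, SE 0.08, adjusted p = 0.00172). Irf1, a transcription factor induced by interferon-gamma, fell from 61.7, 63.9, 58.5 and 64.1 CPM to 49.4, 45.2, 48.9 and 44.9 CPM (-0.42, SE 0.07, adjusted p = 0.0024). Stat2 measured 99.9, 81.8, 93.7 and 105 CPM on HFCF diet, against 123 to 142 CPM on LF diet (-0.49, SE 0.10, adjusted p = 0.00428). These signalling genes were separate between diets while Ifit2 (1.34, SE 0.17, adjusted p = 0.000599) and Oas3 (1.31, SE 0.23, adjusted p = 0.00242) rose. Irf9 overlaps Rnf31, which had up to 675 reads in a library. The calls of Ifit2, Oas3, Oasl2, Trim30a, Irf9, Irf1 and Stat2 held in all 8 fits that left out 1 library, and the count was 9 without HFCF control replicate 1 and 8 without replicate 5.

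In labelled knockout females the same pair of diets gave 17 genes called higher and 0 lower, beside 8.26% and 3.74% of all genes. These were Dhx58, Ifit2, Rsad2, Gbp6, Ifit1, Ifit3, Ifi44, Ifit3b, Oas3, Cmpk2, Trim30a, Isg15, Oasl1, Ifih1, Oasl2, Gbp10 and Oas1a. Dhx58, which encodes the RNA sensor regulator LGP2, rose from 14.9, 14.6, 14.5 and 14.8 CPM to 23.6, 23.7, 21.4 and 19.5 CPM (log2 fold change 0.60, SE 0.12, adjusted p = 0.00949). Rsad2 rose from 11.3, 7.35, 7.97 and 11.5 CPM to 20.6, 31.8, 13.3 and 20.6 CPM (1.20, SE 0.25, adjusted p = 0.0122), and Ifit1 from 13.6, 9.49, 14.4 and 11.3 CPM to 28.7, 31.5, 18.1 and 16.6 CPM (0.97, SE 0.22, adjusted p = 0.0161). The groups were separate for all 3 genes. The count was 3 without LF labelled knockout replicate 2 or without HFCF labelled knockout replicate 2, 7 without LF labelled knockout replicate 3 and 9 without HFCF labelled knockout replicate 4. Dhx58, Ifit2 and Rsad2 were called in all 8 fits. Macrophage markers rose in both HFCF against LF comparisons (9 of 10 each), as did cholangiocyte markers (4 of 4 each) and stellate cell markers (4 of 6 in controls and 3 of 6 in labelled knockouts), and 7 and 1 of 8 hepatocyte markers fell. Of all genes, 18.4% and 8.26% were called higher and 16.8% and 3.74% lower in controls and labelled knockouts. The part of these cell types in these results was not tested.

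In HF males the other genes of the pathway gave calls in both directions in labelled knockouts. Of all genes, 8.57% were called higher and 9.88% lower in this comparison. Of 42 further interferon-stimulated genes 11 were called higher and 2 lower, led by Apol9b (log2 fold change 0.97, SE 0.17, adjusted p = 0.00108), Ifitm2 (0.44, SE 0.08) and Ifitm3 (0.61, SE 0.12), whose products block virus entry. Of 10 receptor and kinase genes tested, Stat3 was higher (0.32, SE 0.09) and Ifngr2 (-0.54, SE 0.08) and Il10rb (-0.37, SE 0.10) were lower, counts near the shares of all genes. Rnf125, a ubiquitin ligase that restrains RIG-I signalling, fell by 0.99 (SE 0.08, adjusted p = 9.22e-07), the smallest adjusted p among the 13 negative regulators. In HFCF males Ifitm3 (0.26, SE 0.06) and Parp12 (0.27, SE 0.06) were called higher among the 42, and 0 lower, beside 0.933% and 1.27% of all genes.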

How the data were processed

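RNA from whole liver was measured as non-strand-specific libraries in 48 samples. The authors deposited raw read counts per gene and FPKM in 11 comparison tables, per the file headers. STAR 2.6.1, HTSeq 0.6.1, DESeq2 and the builds GRCm38 and mm10 are named in the submitters' processing notes. The deposited counts were joined by gene identifier (29221 genes; 1341082 repeated counts compared, 0 differed). Groups came from sample titles. Each comparison was fitted to the whole gene table with edgeR 4.0.16 (R 4.3.3; TMM factors, filterByExpr, quasi-likelihood F test, Benjamini-Hochberg adjustment, threshold 0.05) on its own groups only; interactions used 4 groups. CPM are counts scaled to each library's reads on genes times its TMM factor over all 48 libraries. Alternatives were DESeq2 1.42.0 size factors or Wald test, no filter, all groups of a sex in 1 fit, a replicate block, and leaving out each library. On simulated counts 90% of 2-fold changes were recovered for 6 against 6 libraries (HF males, 13922 genes) and 61% for 4 against 4 (HF females, 13945 genes). Between any 2 libraries of a group the chi-square per degree of freedom was at least 5.81, so none is a copy. Gene positions equal GENCODE M21 for all 36 genes; promoters are from RefSeq.

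All 36 genes may be named; values by library were given for 10 fixed genes and for up to 4 further called genes per comparison by smallest p. Ifit2, Sp100, Bst2 and Gbp7 are also shown in comparisons where that rule does not name them, chosen after their values were seen. Genes of 6 pathway lists and 13 marker lists are given as counts with up to 3 named per direction. The 36 genes and the lists were chosen with earlier results of these data known.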

Additional observations from a re-analysis of the deposited data

Results flagged for a closer look

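In all, 260 sets of library values were checked for a library standing apart from the others (the gap to its neighbour exceeding Dixon's 95% critical value for the group's range). The sets were 25 genes and the mean level of the 36 genes, each in 10 groups. Of these sets 15 held such a library, close to the rate of about 1 in 20 that chance alone gives. Genes of 1 library are not independent, and 6 of the 15 belong to HF labelled knockout male replicate 4. That library was highest for Ifit1 (64.8 CPM), Isg15 (52.6 CPM), Gbp6 (28.7 CPM), Gbp10 (48.5 CPM), Rtp4 (65.0 CPM) and Ifit3 (79.2 CPM), genes of 4 different roles. HFCF labelled knockout male replicate 2 stood apart for Ifit1 (39.3 CPM) and Rtp4 (47.8 CPM), and HF control male replicate 3 for Ifit3 (35.8 CPM).

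Among females, HFCF labelled knockout replicate 2 stood apart for Gbp10 (17.0 CPM) and Oas1g (9.59 CPM), and replicate 1 of the same group for Bst2 (314 CPM) and Irf1 (71.3 CPM). LF labelled knockout replicate 4 was high for Oas1a (12.2 CPM), and LF control replicate 4 was low for Oas3 (2.78 CPM).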

How the results depend on the processing

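No gene called with all libraries changed sign in that comparison under any alternative. Medians of the 36 genes did when 1 library was left out: from -0.01 to 0.29 for HFCF against HF labelled knockout males (HF replicate 4) and to 0.02 to 0.04 without HFCF replicate 1, 4, 5 or 6, from 0.07 to -0.03 for labelled knockouts in HFCF females (labelled knockout replicate 2), and from 0.17 to -0.08 for the labelled knockout difference between the sexes on HF diet (HF labelled knockout male replicate 4). For HFCF against LF control females the median was 0.0 with all libraries. It ran from -0.11 without LF control replicate 4 to 0.17 without LF control replicate 3. No consistent pairing by the replicate numbers of the titles was seen. Correlations of same-numbered libraries' deviations ran from -0.29 to 0.46, and in no comparison were all pairs above 0.1. With 3 to 6 pairs in a comparison, these correlations cannot exclude a pairing. The fit with a replicate block is given as a check. With the replicate block the number of the 36 genes called went from 4 to 10 for labelled knockouts against controls in HF males, from 16 to 0 for HFCF against HF control females, from 2 to 0 for HF against LF control females, from 14 to 6 for HFCF against LF control females and from 17 to 11 for the same diets in labelled knockout females. With all groups of the sex in 1 fit it was 8 for HF males, 1 for HFCF males (0 in the fit of the pair), 11 for HFCF against HF labelled knockout females (7), 2 for HF against LF labelled knockout females (1) and 9 for HFCF against LF control females (14). DESeq2's Wald test gave 1 for HFCF males (0), 2 for LF females (0), 12 for HFCF against HF labelled knockout females, 9 for HF against LF control females and 6 for HF against LF labelled knockout females. The size factors of DESeq2 and the absence of a filter moved no count of calls by over 1.5 times. The causes were not tested.

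Leaving out 1 library at a time, the labelled knockout comparison gave 0 to 14 calls in HF males, and 0 to 1 in HFCF males. HFCF against HF diet gave 9 to 15 calls in control males, 5 to 11 in labelled knockout males, 11 to 21 in control females and 3 to 13 in labelled knockout females. Against LF diet, HF females gave 0 to 2 (controls) and 0 to 1 (labelled knockouts), and HFCF females 8 to 15 and 3 to 17. The interaction of HFCF diet and sex in controls gave 0 to 1. Over the fits without 1 library, a called gene kept its call 535 times and lost it 185 times. Groups of 4 libraries limit what the female comparisons can call.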

Other observations

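Of 27 further genes induced by interferon-gamma, 6 were called higher and 0 lower on HFCF against HF diet in control males, 7 and 2 in labelled knockout males, 10 and 2 in control females and 2 and 1 in labelled knockout females. The 7 of 27 called higher in labelled knockout males are near the 21.6% of all genes called higher there. Ciita, the regulator of MHC class II genes, rose in all 4 comparisons. The log2 fold changes of Ciita were 1.31 (SE 0.25), 1.69 (SE 0.15), 2.04 (SE 0.36) and 1.51 (SE 0.34). Irf8, a transcription factor of myeloid cells, rose in control males (0.86, SE 0.18), labelled knockout males (1.09, SE 0.13) and control females (1.14, SE 0.19). Iigp1, an interferon-gamma-induced GTPase, went the other way and fell in labelled knockout males (-0.40, SE 0.10), control females (-0.51, SE 0.12) and labelled knockout females (-0.59, SE 0.13). Ciita and Irf8 are also expressed by macrophages and other antigen-presenting cells, whose markers rose in the same comparisons, and their part in the result was not tested.

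Of 13 negative regulators of interferon signalling, 2, 4, 4 and 0 were called higher on HFCF diet in the same order and 1, 2, 1 and 1 lower. The shares of all genes are those given for the interferon-gamma list, and the counts called lower are near them. Samhd1, which depletes the nucleotides that viruses need, rose in control males (0.43, SE 0.12), labelled knockout males (0.43, SE 0.09) and control females (0.57, SE 0.09). Rnaseh2c, a subunit of the enzyme that removes RNA from DNA hybrids, fell in the same 3 comparisons (-0.28, SE 0.07; -0.56, SE 0.08; -0.55, SE 0.13).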
